A study of Mus musculus with 4 samples.

Results

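Serum response factor (Srf), its coactivators Myocd and Mrtfa, the ternary complex factor Elk3, the muscle transcription factor Mef2a and the actin capping protein Tmod1 were followed across 4 groups of mouse aorta. These 6 genes were chosen by their measured group levels and by the differences between them, and all probe sets of the Affymetrix mouse genome array that are annotated to their symbols were taken. That gave 14 of the 22626 probe sets that are not controls, and 6 of the 12393 genes with a symbol of their own. All 6 genes, through 10 of the 14 probe sets, reached a log2 level of 5 in at least 1 group, the minimum used here, as did 5151 genes in all.

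The groups were aortas of disrupting peptide mice (DPM) kept with 10 nM beta-estradiol (E2), aortas of DPM mice kept with ethanol vehicle, wild-type (WT) aortas with E2 and WT aortas with vehicle, each for 4 h outside the body. All mice were females on a C57BL/6 background, 12 to 14 weeks old, with the ovaries removed 1 week earlier. DPM mice express amino acids 176 to 253 of estrogen receptor alpha from a CMV promoter, a promoter active in many cell types, and this peptide keeps the receptor away from striatin, the scaffold for its fast signals to kinases. Each sample pooled the RNA of 4 aortas. By their titles, the E2 groups had 2 replicates each and the vehicle groups 3, but the authors' values come as 1 level per group, with no spread between arrays. Whether replicates were separate pools is not stated, so that p and errors may measure technical spread only.

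SRF is a transcription factor that binds a short element, the CArG box, and it has little regulated activity without partners. Myocardin (Myocd) and myocardin-related transcription factor A (Mrtfa) drive contractile and cytoskeletal genes through SRF, and MRTF-A is held inactive by free actin monomers. Ternary complex factors such as ELK3, also called Net, compete with the myocardins for SRF and turn ERK kinase signals into transcription of immediate early genes such as Fos. MEF2A is a MADS-box factor, as SRF is, and serves muscle and endothelial genes, while tropomodulin 1 (Tmod1) caps the slow-growing end of actin filaments.

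On assembly GRCm38.p6 the genes lie at chr17:46546838-46558267 (Srf), chr11:65173608-65269989 (Myocd), chr15:81012281-81190736 (Mrtfa), chr10:93247415-93311159 (Elk3), chr7:67231163-67376456 (Mef2a) and chr4:46038940-46116032 (Tmod1). Promoter windows of 300 bases, of which 250 lie before a transcription start, came from a RefSeq-based table of that assembly and matched 5 of the 6 genes, all but Myocd. The windows were searched on both strands for the CArG box, the MEF2 box, the ETS core CCGGAA that ternary complex factors can bind, the AP-1 element TGANTCA and the full estrogen response element. The stretches with CArG and MEF2 boxes are shown because these are the elements that SRF and MEF2A themselves bind. Capitals mark CArG boxes and the ETS core in Srf, on the minus strand at chr17:46556163-46556292, and the MEF2 box in Mef2a, on the minus strand at chr7:67372849-67372878.
Srf: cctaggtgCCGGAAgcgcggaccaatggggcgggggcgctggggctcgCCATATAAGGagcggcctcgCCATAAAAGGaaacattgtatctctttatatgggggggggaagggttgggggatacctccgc
Mef2a: ctggccgaggcctgactcCTAAAAATAGcc

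The Srf window held 2 CArG boxes, 82 to 73 and 62 to 53 bases before the start, and an ETS core 122 to 117 bases before it. A CArG box was found in 535 of all 32851 windows (1.63%). The Mef2a window held a MEF2 box that begins 2 bases before the start and runs across it, and an ETS core 27 to 22 bases before the start. A MEF2 box was found in 1047 of all windows (3.19%), the ETS core in 14.9%, the AP-1 element in 7.81% and the full estrogen response element in 0.0700%. The windows of Tmod1, Elk3 and Mrtfa, the last with 2 start sites, held none of the 5 elements.

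E2 was accompanied by higher levels of Tmod1, Elk3 and Mef2a in both genotypes, and by lower levels of Mrtfa and Myocd in WT, with Myocd near its vehicle level in DPM. In DPM, 3 of the 6 genes had the authors' unadjusted p under 0.05, all 3 higher (Elk3, Mef2a and Tmod1), where 5.2% of the 5151 genes tested had it. In WT, 5 of the 6 had it, 3 higher and 2 lower (Mrtfa and Myocd), where 6.79% of all genes had it. At 1.5-fold or more there were 2 of 6 in DPM, against 3.94% of all genes, and 4 of 6 in WT, against 2.29%. Since the genes were chosen on these contrasts, the counts describe the choice and are not a test of it.

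After Benjamini-Hochberg adjustment of the deposited limma p over the 5151 genes, 0 of the 6 genes passed a threshold of 0.05 in either genotype. Across the array 1 gene passed in DPM (0.0194%), 0 in WT (0%, against 350 at the unadjusted p) and 1 for the difference between the responses (0.0194%). The gene in both cases was the ubiquitin ligase gene Siah1a, named here after its values were seen. Values after ± below are standard errors (SE) recovered from the authors' deposited differences and p, and all differences are on the log2 scale.

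**Figure D1:**
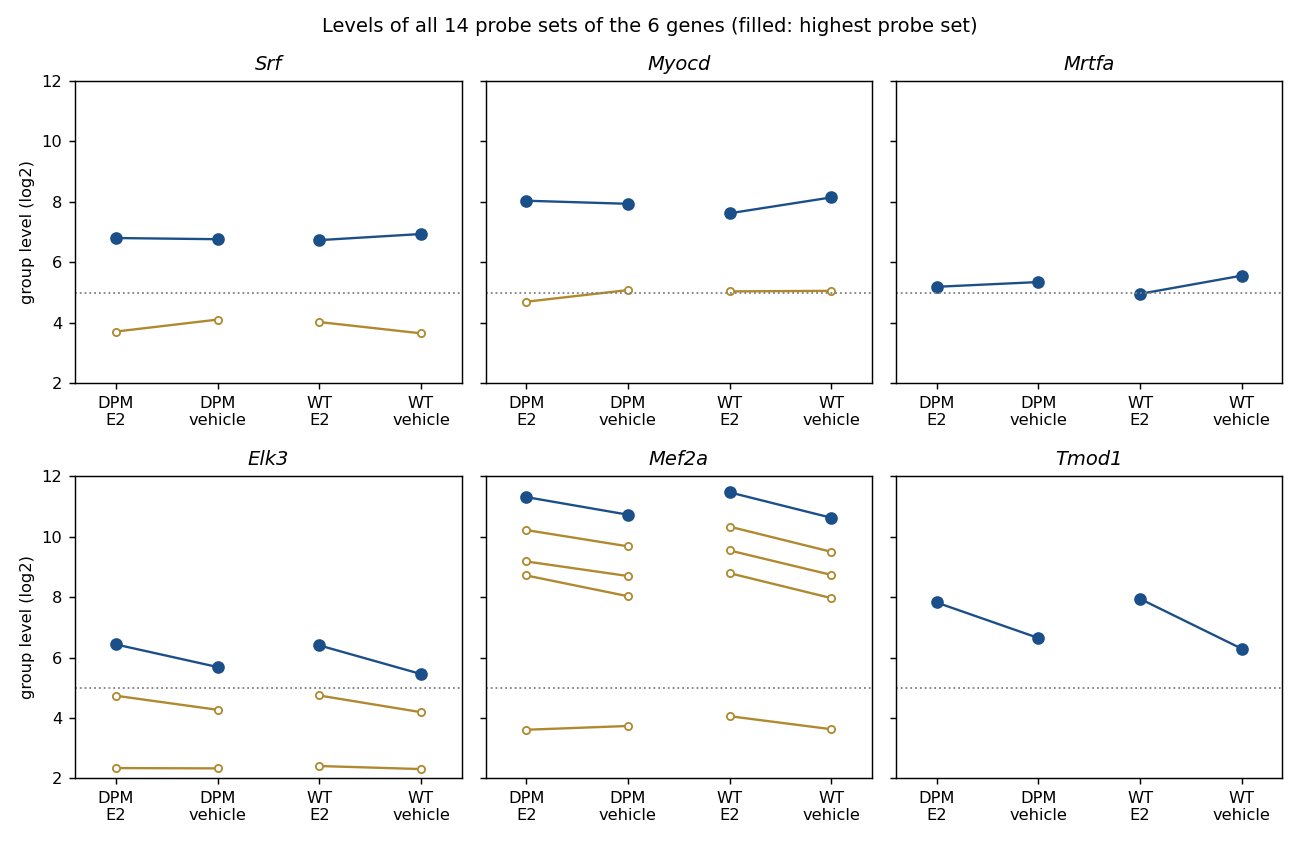
Log2 levels (vertical axis) of all 14 probe sets of the 6 genes in the 4 groups, with 1 authors' level per group; filled points are the probe set with the highest mean, open points the others, lines join E2 and vehicle of a genotype, and the dotted line is the minimum level of 5. Tmod1 and 4 of the 5 probe sets of Mef2a stood higher with E2 in both genotypes, while Srf moved least among the filled points.

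The level of Srf itself differed little between the groups. Its higher probe set (1418255_s_at) stood at 6.80 with E2 and 6.77 with vehicle in DPM, and at 6.74 with E2 and 6.94 with vehicle in WT. WT vehicle was the highest of the 4 levels, and no 2 neighbours in the order differed by more than their SE or its upper bound. The difference with E2 was 0.04 ± 0.12 in DPM, a value that turned to -0.04 when centred on the median gene, and -0.20 ± 0.09 in WT. The suffix of this probe set marks probes that can match more than 1 transcript. The second probe set (1418256_at), built on the same source sequence, lay between 3.65 and 4.11, below the minimum level, and pointed the other way, with -0.40 ± 0.59 in DPM and 0.37 ± 0.45 in WT.

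Myocd, which encodes the coactivator that marks heart and smooth muscle, had its higher probe set (1425978_at) at 8.04 with E2 and 7.94 with vehicle in DPM, and at 7.62 with E2 and 8.15 with vehicle in WT. WT with E2 was the lowest of the 4 groups. It lay 0.31 below the next level, that of DPM vehicle, where the upper bound of the SE is also 0.31. With E2 the level differed by 0.10 ± 0.25 in DPM and by -0.53 ± 0.19 in WT, a 1.44-fold lower level in WT. The second probe set (1425808_a_at), which reached 5.08, did not share this pattern, with -0.39 ± 0.45 in DPM and -0.02 ± 0.34 in WT.

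Mrtfa, the actin-sensing coactivator, had 1 probe set (1434900_at), close to the minimum level. It stood at 5.19 with E2 and 5.35 with vehicle in DPM, and at 4.96 with E2 and 5.56 with vehicle in WT. WT vehicle was highest and WT with E2 lowest, with both DPM groups between them, and each of the 3 steps in this order exceeded its SE or the bound of it. The difference with E2 was -0.16 ± 0.13 in DPM and -0.60 ± 0.10 in WT, where it made a 1.52-fold lower level.

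Elk3, the ternary complex factor that represses SRF targets until ERK signals turn it into an activator, had 3 probe sets. The highest (1448797_at) stood at 6.43 with E2 and 5.69 with vehicle in DPM, and at 6.40 with E2 and 5.45 with vehicle in WT. Both E2 groups lay above both vehicle groups, and within a treatment the genotypes differed by less than the bound of the SE. The difference with E2 was 0.75 ± 0.21 in DPM (1.68-fold) and 0.95 ± 0.16 in WT (1.93-fold).

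A second Elk3 probe set (1435143_at), from another source sequence and below the minimum level, stood at 4.74 with E2 and 4.27 with vehicle in DPM, and at 4.74 with E2 and 4.19 with vehicle in WT. It kept the order of E2 above vehicle, with 0.47 ± 0.14 in DPM and 0.55 ± 0.11 in WT. The third (1417662_at) shares its source sequence with the highest one but lay between 2.31 and 2.41, where the lowest level of the array is 2.29, and differed by 0.01 ± 0.06 in DPM and 0.10 ± 0.04 in WT. Near that floor a difference cannot be sized.

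Mef2a had 5 probe sets, more than any other of the 6 genes, and 4 of them reached the minimum level. The highest (1452347_at) stood at 11.31 with E2 and 10.73 with vehicle in DPM, and at 11.47 with E2 and 10.62 with vehicle in WT. Again both E2 groups lay above both vehicle groups, and the genotypes within a treatment differed by less than the bound of the SE. The difference was 0.58 ± 0.16 in DPM, just under 1.5-fold, and 0.84 ± 0.12 in WT (1.79-fold).

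The 4 Mef2a probe sets above the minimum level gave differences of 0.48 to 0.69 in DPM and of 0.81 to 0.84 in WT. Of these 4, 3 come from 1 source sequence, so they are not independent readings of the gene. The one from a separate transcript (1421252_a_at) stood at 8.72 with E2 and 8.03 with vehicle in DPM, and at 8.79 with E2 and 7.97 with vehicle in WT. The fifth (1425426_a_at), at 3.61 with E2 and 3.74 with vehicle in DPM and at 4.06 with E2 and 3.63 with vehicle in WT, was higher with E2 in WT alone (0.43 ± 0.12, against -0.12 ± 0.16 in DPM).

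Tmod1 had 1 probe set (1422754_at), at 7.82 with E2 and 6.65 with vehicle in DPM, and at 7.94 with E2 and 6.29 with vehicle in WT. Both E2 groups lay far above both vehicle groups: DPM with E2, the lower of the E2 groups, was 1.17 above DPM vehicle, the higher of the vehicle groups. With E2 the level differed by 1.17 ± 0.31 in DPM, a fold of 2.26 and the 6th highest difference among the 5151 genes, and by 1.65 ± 0.23 in WT, a fold of 3.14 and the 2nd highest there. The genotypes differed by less than the bound of the SE within each treatment, by -0.12 with E2 and by 0.36 with vehicle.

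**Figure D2:**
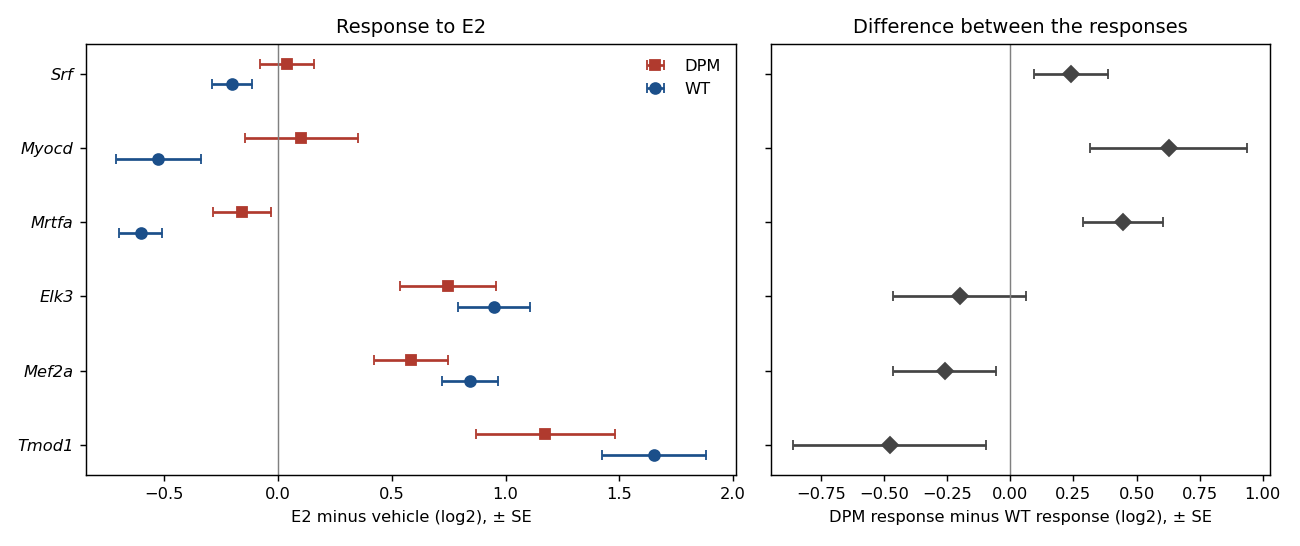
Left, the log2 difference of E2 minus vehicle in DPM (squares) and WT (circles) for the highest probe set of each gene; right, the DPM response minus the WT response; bars are ± 1 recovered SE. Tmod1, Mef2a and Elk3 lie right of 0 in both genotypes with smaller values in DPM, and Mrtfa and Myocd lie left of 0 in WT, with Myocd at 0.10 in DPM.

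Whether the peptide changed these responses is asked by the DPM response minus the WT response. The 3 genes that were higher with E2 had smaller responses in DPM, and Srf, Myocd and Mrtfa had more positive ones. Each of the 6 highest probe sets thus lay closer to 0 in DPM than in WT. The genes were chosen with these responses known, so this count describes the choice and is not a test of the peptide. The share of all genes that lay closer to 0 in DPM was not counted, so the count for the 6 genes has no background beside it. At 1.5-fold or more with E2 there were 203 of the 5151 genes in DPM and 118 in WT. The DPM response minus the WT response was -0.48 ± 0.38 for Tmod1, with a 95% interval of -1.40 to 0.44. For Mef2a it was -0.26 ± 0.20 (-0.75 to 0.23), and for Elk3 it was -0.20 ± 0.26 (-0.84 to 0.44). These intervals hold 0 and also reach sizes larger than the gene's own response in DPM.

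For the coactivators the difference was 0.63 ± 0.31 for Myocd (-0.12 to 1.38) and 0.45 ± 0.16 for Mrtfa (0.07 to 0.83), and for Srf 0.24 ± 0.15 (-0.11 to 0.59). Of the 6 genes, 1 had the authors' unadjusted p under 0.05 here, Mrtfa, where 4.19% of all genes had it, and 0 passed after adjustment of the limma p. The Mrtfa value was 0.38, and no longer under that p, after subtraction of the array-wide median of 0.07 or quantile normalization of the group levels. At 1.5-fold there was 1 of 6, Myocd, against 6.91% of all genes. The second Myocd probe set stood at -0.37 ± 0.57, on the other side of 0. Between genotypes within a treatment, where no p is given, 0 of 6 differed by 1.5-fold, with E2 (2.17% of all genes) or with vehicle (3.24%).

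Averaged over both genotypes, the difference with E2 was 1.41 ± 0.19 for Tmod1 (2.66-fold), 0.85 ± 0.13 for Elk3, 0.71 ± 0.10 for Mef2a, -0.38 ± 0.08 for Mrtfa, -0.21 ± 0.16 for Myocd and -0.08 ± 0.07 for Srf. Likeness of pattern was measured as the Euclidean distance between the 4 group levels after each gene was centred on its own mean. Elk3 and Mef2a lay 0.21 apart and Myocd and Mrtfa also 0.21, while Tmod1 lay 1.86 from Mrtfa, the furthest pair. The pairs share the same 4 groups, so these distances are descriptions.

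By the same distance over the 4 groups, the genes nearest to Tmod1 were Caskin2, the small proline-rich protein gene Sprr1a and the channel gene Calhm5, at 0.48 to 0.51. Elk3 lay nearest to Serpinb9, a granzyme B inhibitor gene, Myo18a and Esm1, the endothelial proteoglycan gene for endocan, at 0.13 to 0.21. Mef2a lay nearest to Tnfsf9, Ctr9, a subunit of the PAF1 complex, and Esm1, at 0.07 to 0.16. Mrtfa was followed most closely by Steap4, Pex16 and the monocyte chemokine gene Ccl2, at 0.06 to 0.10, and Myocd by the enkephalin precursor gene Penk, Anapc2 and Zyg11b, at 0.04 to 0.06. Srf, with a nearly flat pattern, had Ube3b, Pcbp3 and Ccdc9 within 0.02. Esm1 passed the level filter through the E2 groups alone (5.05 in DPM, 5.01 in WT). Pex16 passed it through the vehicle groups alone (5.21 in DPM, 5.34 in WT). The direction of both genes with E2 was thus bound by the filter, and their likeness to these members is in part set by it.

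**Figure D3:**
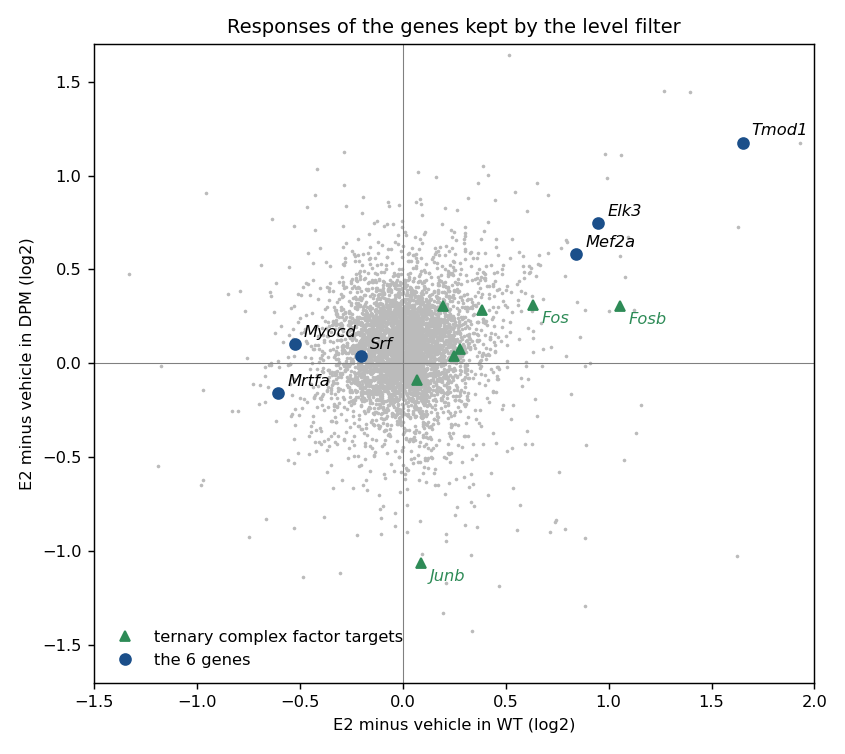
The log2 difference of E2 minus vehicle in WT (horizontal) against DPM (vertical) for the genes kept by the level filter (grey; 20 of 5151 lie outside the axes), with the 6 genes as circles and the ternary complex factor targets as triangles. Tmod1, Elk3 and Mef2a lie in the upper right and Mrtfa in the lower left; Fosb stands at 0.31 in DPM and 1.05 in WT.

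Of the other SRF partners, Elk4 was the 1 besides the 6 genes that reached the minimum level, with -0.16 ± 0.12 in DPM and -0.14 ± 0.09 in WT. Elk1 lay between 2.79 and 3.04, and Mrtfb at the floor of the array in every group. Counts for the lists below leave out the 6 genes, and stand beside all 5151 genes, of which 65.9% were higher with E2 in DPM and 51.8% in WT, with medians of 0.08 and 0.01. The lists were chosen with earlier results of these data known, so their counts are descriptions and not a test.

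The targets of ternary complex factors, the immediate early genes that ELK proteins and SRF serve together, were all higher with E2 in WT, while their share of higher genes in DPM was near that of all genes. Of 8 measured, 6 were higher in DPM with a median of 0.18 and 0 had the unadjusted p under 0.05, and 8 were higher in WT with a median of 0.26 and 4 had it, all higher. Those 4 were Fosb (0.31 ± 0.32 in DPM, 1.05 ± 0.24 in WT), Fos (0.31 ± 0.31 in DPM, 0.63 ± 0.23 in WT), the zinc finger factor gene Egr1 (0.07 ± 0.09 in DPM, 0.28 ± 0.07 in WT) and the survival gene Mcl1 (0.04 ± 0.10 in DPM, 0.25 ± 0.08 in WT). Each gene is read here through its highest probe set, and the other Mcl1 probe sets, all above the minimum level, varied. Some differed alike in both genotypes, by 0.12, 0.21 and 0.21 in DPM and by 0.09, 0.23 and 0.20 in WT. Another differed by 0.04 in DPM and 0.15 in WT, and none of these had the unadjusted p under 0.05. The last, at -0.09 in DPM and 0.29 in WT, had it in WT and for the response difference. Junb, an AP-1 subunit gene, stood at -1.06 ± 0.86 in DPM and 0.09 ± 0.64 in WT. The response was lower in DPM for 7 of the 8, with a median of -0.21 and 0 at the unadjusted p, where 61.9% of all genes had the higher response in DPM (median 0.07). After adjustment of the limma p over all genes, 0 of the 8 passed in any contrast. Between genotypes, where no p is given, 7 of the 8 stood higher in DPM than in WT with vehicle (median 0.18). With E2, 4 of the 8 stood higher in DPM (median -0.00080). Of all genes, 42.1% were higher in DPM with vehicle and 58.4% with E2. The same vehicle levels enter the response difference, so the count with vehicle is not a separate reading of it. Fosb stood at 9.36 in DPM and 8.69 in WT with vehicle, and at 9.67 in DPM and 9.74 in WT with E2.

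The cytoskeletal targets of MRTF and SRF did not share a direction. Of 18 measured, 10 were higher with E2 in DPM, with a median of 0.04 that turned to -0.04 when centred, and 6 were higher in WT with a median of -0.07. The 1 gene with the unadjusted p under 0.05 was Fhl2, which encodes a LIM domain cofactor of SRF, in WT (-0.35 ± 0.21 in DPM, -0.42 ± 0.16 in WT). Ankrd1, a stretch-induced gene of heart and vessel, stood at 3.70 with E2 and 5.96 with vehicle in DPM, a difference of -2.26 ± 0.98, and at 3.92 with E2 and 3.60 with vehicle in WT. It therefore passed the level filter through DPM vehicle alone, the group in which heart muscle markers were highest too. CArG boxes were found in the windows of 5 of the 15 listed genes that have one, Actg1, Fhl2, Filip1l, Myl9 and Vcl.

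Smooth muscle genes with CArG boxes, the classic targets of myocardin, shifted little in the median. In DPM most of them were lower with E2, where 65.9% of all genes were higher. Of 16 measured, 3 were higher and 13 lower with E2 in DPM (median -0.04, or -0.13 when centred), and 7 were higher and 9 lower in WT (median -0.05). These counts depend in part on the level filter. Des passed it through DPM vehicle alone (5.50), and so was bound to be lower with E2 in DPM. Synpo2 passed it through the vehicle groups alone (5.03 in DPM, 5.13 in WT), and so was bound to be lower in both genotypes. Smtn, the gene for smoothelin, had the unadjusted p under 0.05 in DPM (-0.38 ± 0.15, against -0.18 ± 0.12 in WT). Des, the gene for desmin, stood at -0.86 ± 0.42 in DPM and 0.30 ± 0.32 in WT, and was likewise highest in DPM vehicle. The part of heart muscle RNA in the values of Ankrd1 and Des was not tested. Within 250 bases before to 50 after the start, 1 of 15 genes of this list, Fhl1, held a CArG box.

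Of the relatives of Tmod1, Tmod3, the widely expressed tropomodulin gene, stood at 7.28 with E2 and 7.16 with vehicle in DPM, and at 7.30 with E2 and 7.30 with vehicle in WT. Tmod4 lay at the floor of the array and Tmod2 no higher than 2.34. Of the 6 measured leiomodins, tropomyosins and tropomodulins besides Tmod1, 2 were higher with E2 in DPM and 2 in WT, and 0 had the unadjusted p under 0.05 in either genotype, so 0 passed after adjustment of the limma p. Tpm1, a tropomyosin gene of muscle, differed by -0.13 ± 0.12 in DPM and -0.20 ± 0.09 in WT. Lmod1, the smooth muscle leiomodin gene, differed by -0.0020 ± 0.23 in DPM and -0.29 ± 0.17 in WT.

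Among MEF2 genes besides Mef2a, both that reached the minimum level lay within their SE of their vehicle levels. Mef2c differed by 0.21 ± 0.39 in DPM and 0.01 ± 0.29 in WT, and Mef2d by 0.11 ± 0.28 in DPM and -0.12 ± 0.21 in WT. Mef2b lay at the floor. Hdac7, a deacetylase gene whose product binds and represses MEF2 factors, had the unadjusted p under 0.05 in DPM (-0.62 ± 0.24, against -0.18 ± 0.18 in WT). Of 6 genes described as responsive to MEF2, 5 were higher with E2 in DPM and 5 in WT, with medians of 0.20 and 0.22. Klf2, a flow-responsive factor of endothelium, stood at 0.34 ± 0.25 in DPM and had the unadjusted p in WT (0.68 ± 0.19). A MEF2 box was found in the windows of 2 of the 7 listed genes, Klf2 and Jun. Jun stood at -0.13 ± 0.25 in DPM and 0.23 ± 0.19 in WT.

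Of 6 measured genes between Ras and ERK, 4 were higher with E2 in DPM and 4 in WT. Map2k1, the gene for the ERK-activating kinase MEK1, had the unadjusted p under 0.05 in both, with 0.48 ± 0.17 in DPM and 0.39 ± 0.12 in WT. Of 10 measured modulators of myocardin, which again include Fhl2, 5 were higher in DPM and 5 in WT, with medians of 0.01 in both. Among those counted as higher, Crebbp passed the level filter through DPM with E2 alone (5.05). Hey2 passed it through the E2 groups alone (5.06 in DPM, 5.18 in WT).

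**Figure D4:**
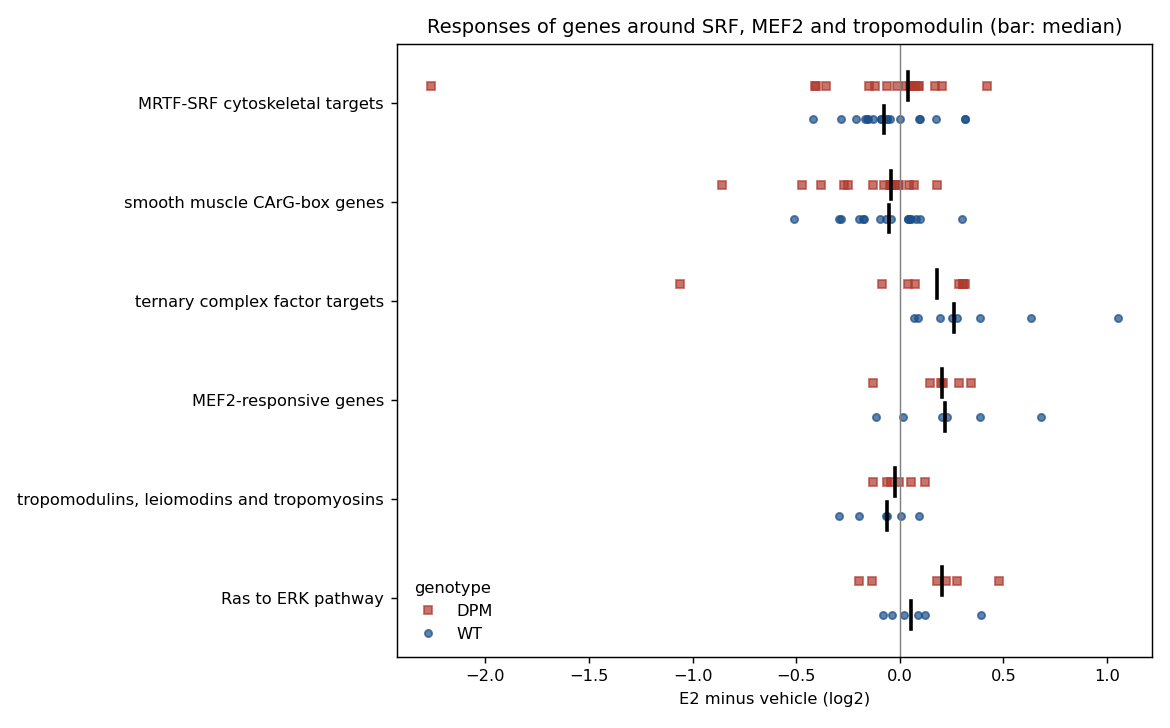
The log2 difference of E2 minus vehicle for each measured gene of 6 lists, without the 6 genes, in DPM (squares) and WT (circles); black bars are medians. All 8 ternary complex factor targets lie right of 0 in WT, while the medians for MRTF targets, smooth muscle genes and relatives of Tmod1 lie within 0.08 of 0.

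The label of the tissue was borne out by its muscle markers, with Acta2 between 13.92 and 14.05 and Myh11 between 13.05 and 13.16 in the 4 groups. In pooled tissue, fewer cells of a type and less RNA per cell cannot be told apart. Tmod1, Myocd and Mef2a are also genes of heart muscle, and the log2 of the summed levels of 12 heart muscle markers, 12 of 12 on the array, was 7.52 with E2 and 10.27 with vehicle in DPM, and 7.15 with E2 and 7.29 with vehicle in WT. The atrial gene Nppa stood at 2.38 with E2 and 6.81 with vehicle in DPM, and at no more than 2.31 in both WT groups. Of the 10 heart muscle markers that reached the minimum level, 8 reached it in DPM vehicle alone, so no count of their directions is given. The part of heart muscle RNA in the values of the 6 genes was not tested.

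Tmod1 is also abundant in red blood cells, for which 4 of 9 listed markers had a probe set annotated to them alone. The 4 probe sets annotated to several globin genes together lay between 10.75 and 14.28, so globin RNA was abundant in all groups. They differed with E2 by -0.29 to 0.03 in DPM and by -0.51 to -0.15 in WT, 0 of 4 with the unadjusted p under 0.05 in either. Alas2, of heme synthesis in red cell precursors, stood at 7.35 with E2 and 7.57 with vehicle in DPM, and at 7.31 with E2 and 8.01 with vehicle in WT. The log2 of the summed endothelial markers, 8 of 8 on the array, was 9.61 with E2 and 9.71 with vehicle in DPM, and 9.84 with E2 and 9.47 with vehicle in WT. Of 7 measured, 3 had the unadjusted p under 0.05 in WT, all higher (Icam2 at 0.68, Tek at 0.63 and Vwf at 0.50), where 6.79% of all genes had it. The others differed in WT by 0.39 (Pecam1), 0.16 (Emcn), 0.05 (Cdh5) and -0.0024 (Kdr). Emcn had the unadjusted p under 0.05 in DPM (0.58), but reached the minimum level in DPM with E2 alone (5.58). It thus passed the level filter only through the group where it was high, so no count is given for DPM. The log2 sum over 9 of 9 smooth muscle markers was 15.25 with E2 and 15.33 with vehicle in DPM, and 15.37 in both WT groups. Mesothelial markers, 5 of 6 on the array, had a log2 sum of 8.65 with E2 and 7.98 with vehicle in DPM, and of 7.91 with E2 and 7.84 with vehicle in WT. Among them Upk3b differed by 1.17 ± 1.28 in DPM and 1.93 ± 0.96 in WT, Krt19 by 1.00 ± 0.63 in DPM and 0.41 ± 0.48 in WT, and Krt18 by 0.45 ± 0.20 in DPM and -0.44 ± 0.15 in WT. Krt19 reached the minimum level in DPM with E2 alone (5.09). The mesothelial gene Wt1 did not exceed 2.35. The 18 hybridization controls were all lower with E2 in DPM (median -0.47), while their median was 0.02 in WT. The 5' probe set for Gapdh, a control of RNA integrity, differed by -1.21 ± 1.11 in DPM and 0.54 ± 0.84 in WT. The part of red blood cell, endothelial and mesothelial RNA, and of what these controls measure, in the results for the 6 genes was not tested.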

How the data were processed

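Labelled RNA of pooled mouse aortas was hybridized to Affymetrix mouse genome arrays. The authors deposited 1 normalized log2 level per group, log2 differences for 3 contrasts and the unadjusted p-value of each; GCRMA and limma are named in the submitters' processing notes without a version or role. The levels in both deposited files were identical, and the differences equalled those of the levels within 6.0e-08. GCRMA holds dim probe sets near a floor, here 2.29, so differences of dim probe sets are compressed.

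Gene symbols are those of the array annotation, brought up to date through Entrez identifiers in a table of RefSeq genes (GRCm38.p6). Of 22690 probe sets, 64 were controls, 20393 had 1 symbol, 691 several and 1606 none. The probe set of highest mean level stood for its gene, and a gene entered the tests if a group reached a log2 level of 5. Deposited p-values were adjusted over the 5151 genes by the Benjamini-Hochberg method. Standard errors were recovered as the difference over the t quantile of its p, at 6.44 total degrees of freedom, the value at which, in 7345 probe sets, the 3 errors stand in a fixed relation. At that value DPM responses had 1.33 times, and response differences 1.66 times, the error of WT responses. The replicate numbers in the titles, the same in both genotypes, would give equal errors, so how many arrays stand behind each group is unclear. For differences between genotypes the error of the response difference served as an upper bound, if groups are independent. The recovery was tested on simulated data. The precision is limited by the number of arrays.

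The members and lists were chosen with earlier results of these data known. Genes named besides the members were list members with an unadjusted p under 0.05 in an E2 contrast or in the response difference, up to 4 more per list of at least 1.5-fold, and the 3 genes nearest in pattern to each member. List genes outside that rule (Elk1, Elk4, Mrtfb, Mef2b, Mef2c, Mef2d, Tmod2, Tmod3, Tmod4, Lmod1, Tpm1) were added as relatives after their values were seen. Jun was named for the MEF2 box in its window, and Synpo2, Crebbp and Hey2 for the groups in which they passed the level filter. The result of 1 list is not reported here. Alternatives were centring, quantile normalization, other level filters, every probe set as a feature and the mean over probe sets. Python 3.11.15, numpy 2.4.6, pandas 2.3.3, scipy 1.17.1 and matplotlib 3.10.9 were used.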

Additional observations from a re-analysis of the deposited data

Results flagged for a closer look

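For 2 probe sets of the 6 genes the authors' deposited p of the difference between the DPM and the WT response was under 0.05 before adjustment. The Mrtfa probe set differed by 0.45 ± 0.16, with a response of -0.16 in DPM and -0.60 in WT, and stands close to the minimum level. The dim Mef2a probe set 1425426_a_at differed by -0.56 ± 0.19, with -0.12 in DPM and 0.43 in WT, while the other 4 probe sets of Mef2a differed by -0.33 to -0.14. Both belong to genes chosen on these values, so the differences are descriptions.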

How the results depend on the processing

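The Mrtfa response difference kept its direction but lost the unadjusted p of 0.05 when centred (0.38) or quantile normalized (0.38); the other 29 values of the 6 genes (5 contrasts each) stayed on their side of that p, or within the error where no p is given, under both. Of these, the E2 difference of Srf in DPM changed sign under both (-0.04 and -0.03) and DPM minus WT with E2 for Elk3 when centred (-0.0069). With the mean over probe sets, which brings in dim ones, Srf stood at -0.18 for E2 in DPM, 0.086 for E2 in WT, -0.26 for the response difference, and -0.12 with E2 and 0.14 with vehicle for DPM minus WT. In the same setting Myocd stood at -0.27 for E2 in WT, 0.13 for the response difference and 0.037 for DPM minus WT with E2, and Elk3 at 0.41 for E2 in DPM and 0.53 for E2 in WT. Within the error, Myocd also changed sign for E2 in DPM (-0.14), and Elk3 for DPM minus WT with E2 (-0.015). The cause was not tested.

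The adjusted call in DPM (Siah1a) ended when centred or quantile normalized (0 each), and that of the response difference ended when centred, quantile normalized, without a level filter or with every probe set (0 each). With every probe set, 3 passed in DPM (Siah1a, Tomm22 and Rusc1), and at a level of at least 6, 1 passed in WT (Mast2). At the unadjusted p under 0.05, every probe set gave 424 in DPM and 538 in WT, and no level filter gave 408 in DPM and 348 for the response difference (268 in DPM, 350 in WT and 216 for the response difference as reported), since more features were tested. At 1.5-fold, DPM against WT counted 234 with E2 and 290 with vehicle for every probe set (112 and 167 as reported), 64 with E2 and 107 with vehicle at a level of at least 6, and 173 with E2 without a filter. Of 50 list medians, 6 changed sign when centred, 4 when quantile normalized and 12 with the mean over probe sets. Without a filter, 7 changed sign or moved to exactly 0. All these medians lay between -0.21 and 0.02 then. At least 2 of the 3 nearest genes stayed for each of the 6 genes when quantile normalized. Single arrays were not analysed here, so no replicate could be left out, and dim probe sets near the floor limit what can be sized.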
